A study of Mus musculus with 10 samples.

Results

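*Rreb1*, the gene mutated in these embryos, was higher in *Rreb1*-/- than in *Rreb1*+/+ embryos, while the difference of none of the 8 SMAD genes passed the test. RREB1, the RAS-responsive element binding protein, is a zinc finger transcription factor that is known to act together with SMAD proteins at some of their target genes. The 9 genes described here are the rows of the deposited table whose symbol was *Rreb1*, *Smad1*, *Smad2*, *Smad3*, *Smad4*, *Smad5*, *Smad6*, *Smad7* or *Smad9*, out of 20974 genes in all. The rule uses symbols and no measured value. All 9 were in the table and all 9 passed the filter on low values.

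SMAD proteins carry the signal of the TGF-β superfamily from receptors at the cell surface to the DNA. BMP ligands act through SMAD1, SMAD5 and SMAD9, and Nodal, activin and TGF-β through SMAD2 and SMAD3, each of which enters the nucleus with the common partner SMAD4, while SMAD6 and SMAD7 are inhibitors that the pathway itself induces. During gastrulation, BMP4 from the extraembryonic ectoderm and Nodal from the epiblast together induce the primitive streak, where mesoderm and endoderm form. The activity of SMADs is set by their phosphorylation, which RNA-sequencing does not measure.

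The data were RNA-sequencing libraries of 10 single embryos at embryonic day (E) 7.5, 5 *Rreb1*+/+ and 5 *Rreb1*-/-, labelled as whole embryos of the CD1 strain and obtained from intercrosses of *Rreb1*+/- mice. According to the methods of the study the line was crossed out to CD1 and kept on a mixed CD-1/129 Sv/C57BL6/C2J background. The parietal endoderm had been dissected off every embryo for genotyping. The mutation was made by CRISPR-Cas9 and removed most of the coding sequence in exon 6. The study made a larger and a smaller deletion and combined them, and the labels do not say which of them each mutant embryo carried. Embryos are named here by the replicate numbers 2 to 6 of their titles. Values are normalized counts, that is reads per gene divided by a size factor for each library, and rest on 31.5 to 35.8 M reads in genes per embryo. Because these are bulk samples, fewer cells of a type and less RNA per cell cannot be told apart.

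The embryos were not alike in sex or in markers of stage. The summed normalized count of 4 Y-linked genes was 0 to 3.8 in every *Rreb1*+/+ embryo and 2.1 in *Rreb1*-/- replicate 2, but 5849 to 9172 in *Rreb1*-/- replicates 3 to 6, so sex and genotype were largely confounded. Replicates 5 and 6 of both genotypes stood apart from replicates 2 to 4. The sum of 5 primitive streak and mesoderm markers (*T*, *Mesp1*, *Tbx6*, *Lefty2* and *Mixl1*) was 2230 to 3489 in replicates 5 and 6 and 7408 to 12295 in replicates 2 to 4, and the sum of 4 epiblast markers was 14852 to 19762 against 33288 to 48324. The stage of each embryo within E7.5 is not given in the labels. All 5 visceral endoderm and all 5 extraembryonic ectoderm markers were tested, as whole embryos should contain both tissues, and the sum of 4 immune cell markers was only 81.8 to 268. Of the 5 visceral endoderm markers 1 was called lower in the mutants and none higher (log2 fold changes −1.32 to 0.08), and of 6 parietal endoderm markers 1 was called higher and none lower (−0.40 to 1.45). The called markers were *Afp*, lower in the mutants (10611 to 15296 in *Rreb1*+/+ and 2831 to 7989 in *Rreb1*-/- embryos, limma, adjusted p = 0.0157) and *Plat*, higher (294 to 551 and 711 to 1655, limma, adjusted p = 0.00490).

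*Rreb1* lies on the plus strand of chromosome 13 from 37778400 to 37952005 (GRCm38). Its normalized count was 2534, 2741, 2365, 2924 and 2657 in *Rreb1*+/+ replicates 2 to 6 and 4657, 5715, 3988, 5052 and 5638 in the *Rreb1*-/- replicates. Every mutant embryo lay above every wild-type embryo. The wild-type mean was 2644 ± 211 and the mutant mean 5010.02 ± 718 (n = 5 embryos each, SD). On the log2 scale this is a difference of 0.91 ± 0.10 (standard error; limma, adjusted p = 0.000482), or 1.88-fold with a 95% interval of 1.62 to 2.19. The exact two-sided permutation test over the embryos gave p = 0.00794, the smallest that 5 against 5 embryos allow. The difference was alike in replicates 2 to 4 (log2 fold change 0.90, limma, adjusted p = 0.0153) and in replicates 5 and 6 (0.94, limma, adjusted p = 0.0229). With the summed Y-linked count as a covariate it was 0.85 (limma, adjusted p = 0.0814). The mutant whose Y-linked sum was as low as in the wild types, replicate 2 (2.1), was at 4657 for *Rreb1*. A count over the whole gene includes exons outside the deletion, so it does not tell whether the RNA encodes a full-length protein, and reads from exon 6 alone were not analysed here.

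Among the 9 genes *Rreb1* was the only 1 called higher, beside 3.11% of the 15603 genes tested, and it was also the only 1 whose values did not overlap between genotypes, beside 6.7% of the genes tested. None of the 9 was called lower, beside 1.15% of the genes tested, in limma, edgeR or DESeq2 and also at an unadjusted p under 0.05. Of all genes tested, 378 had a larger log2 fold change than *Rreb1*.

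**Figure D1:**
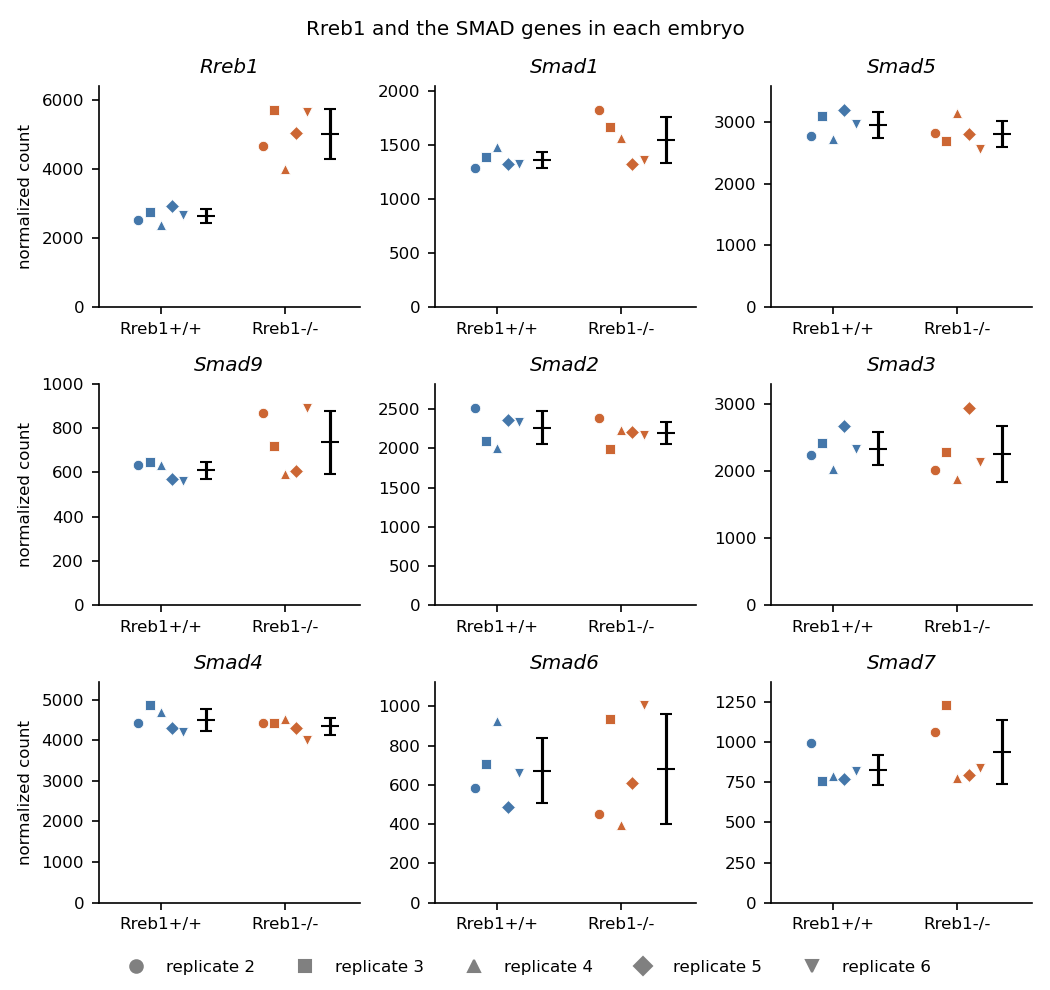
Normalized counts of *Rreb1* and the 8 SMAD genes, each on its own axis from 0, with 1 point per embryo, its replicate number shown by the shape, and mean ± SD beside the points of each genotype. For *Rreb1* the mutant embryos (3988 to 5715) lie above all wild-type embryos (2365 to 2924), and for every SMAD gene the genotypes overlap.

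RefSeq (GRCm38.p6) gives *Rreb1* 4 transcription starts. The window before the most upstream of them is shown because *Rreb1* RNA is the member that rose. That start, at 37826038, lies inside the gene as placed above, which begins at 37778400. The sequence at that beginning was not examined. It covers chr13:37825788-37826047 on the plus strand and runs 5′ to 3′ from 250 bases before the start to 10 bases after it, with capitals at a GC-rich element bound by BMP-activated SMADs (GGCGCC).
Rreb1: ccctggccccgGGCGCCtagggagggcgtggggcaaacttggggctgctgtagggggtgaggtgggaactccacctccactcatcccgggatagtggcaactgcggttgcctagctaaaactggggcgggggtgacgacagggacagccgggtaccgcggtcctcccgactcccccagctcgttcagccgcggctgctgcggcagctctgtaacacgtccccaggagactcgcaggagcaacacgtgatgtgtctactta
That element occurred in this window only among the 4 *Rreb1* windows, in windows of *Smad5* (position −19) and *Smad9* (−51), neither of which was called, and in 9.96% of all 32851 RefSeq windows of the same length. The SMAD-binding letters CAGAC (or GTCTG on the other strand) occurred in the window of another *Rreb1* start, at positions −224 and −214, and in 44% of all windows. The core letters of the RREB1 motif, CCCAAACC, were searched on both strands too, and were in none of the 11 windows of the 6 members that RefSeq's table covers and in 1.42% of all windows. Such matches are letters in a window and do not show binding.

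The 5 genes whose pattern over the 10 embryos was most like that of *Rreb1* were *Ephb1*, *Evc*, *Cdh6*, *Akap12* and *Eif5a2*. Likeness was the root mean square difference of log2 values, each gene centred on its own mean over the 10 embryos, and was 0.12 to 0.16 on that scale for these 5 out of 15602 genes compared. *Akap12*, which encodes a scaffold protein that anchors protein kinase A, was at 3764 to 4509 in *Rreb1*+/+ embryos and 7157 to 8541 in *Rreb1*-/- embryos. *Ephb1*, an ephrin receptor, was at 315 to 449 and 547 to 739. For the SMAD genes other than *Smad9* the single most similar gene was *G3bp2* for *Smad1*, *Rasal2* for *Smad5*, *Mapre1* for *Smad2*, *Tanc1* for *Smad3*, *Zcchc8* for *Smad4*, *Lmna* for *Smad6* and *Wsb2* for *Smad7*, at differences of 0.03 (*Mapre1*) to 0.14 (*Lmna*). The order of single embryos within a genotype contributed to the measure as well as the genotype difference, which was 0.78 to 0.92 on the log2 scale for the 5 genes most like *Rreb1*.

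Of the genes beside *Rreb1* on chromosome 13, 1 passed the test. Of 33 annotated genes starting within 0.5 Mb of its ends, 8 were in the table and 6 were tested. Over all genes tested 3.11% were called higher and 1.15% lower, and 6.7% did not overlap between genotypes. *Cage1*, a cancer-testis antigen gene that lies 54.0 kb beyond the end of *Rreb1* on the minus strand, was lower in the mutants, at 21.1, 22.1, 20.1, 24 and 27.3 in *Rreb1*+/+ replicates 2 to 6 and 6.4, 6.2, 8.5, 16.7 and 6.3 in *Rreb1*-/- replicates 2 to 6. Mutant replicate 5 was the nearest to the wild type and the genotypes did not overlap. These are low counts, and of the genotype means only that of *Rreb1*+/+ (22.9, against 8.8 in *Rreb1*-/-) reached the filter of 15. The log2 fold change was −1.37 (SE 0.29 in limma, adjusted p = 0.0211). The call was lost in limma at like fold changes without *Rreb1*+/+ replicate 3, 5 or 6 (−1.38, −1.36 and −1.31, adjusted p = 0.0525, 0.0582 and 0.0624) and without *Rreb1*-/- replicate 2 (−1.29, adjusted p = 0.0527). It was also lost with the Y-linked covariate (−1.68, adjusted p = 0.162) and in replicates 5 and 6 alone (−1.23, adjusted p = 0.442). The other 5 tested neighbours were *Ssr1*, *Riok1*, *Dsp*, *Snrnp48* and *Bmp6*, and none of them passed. *Ssr1*, the nearest, was at 11072 ± 387 and 11207 ± 999 (log2 difference 0.01, limma, adjusted p = 0.937). *Dsp*, which encodes the desmosomal protein desmoplakin, was at 7522 ± 1232 and 5859 ± 556 (−0.35, limma, adjusted p = 0.125).

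The SMAD genes were expressed at unequal levels, compared here as normalized counts per kb of merged exons (GENCODE M21). *Smad4* stood highest, at 1210 ± 73.4 per kb in *Rreb1*+/+ and 1169 ± 53.7 in *Rreb1*-/- embryos, a level above that of 90.6% of the genes tested. *Smad3* (421 ± 43.3 and 406 ± 75.0) and *Smad5* (397 ± 27.4 and 377 ± 28.6) followed, and their values overlapped in both genotypes. *Smad2* (258 ± 23.8 and 251 ± 15.7), *Smad1* (217 ± 11.9 and 247 ± 33.8), *Smad6* (210 ± 51.2 and 212 ± 86.9) and *Smad7* (183 ± 21.2 and 208 ± 44.0) came next, and each overlapped its neighbour in this order. *Smad9* stood lowest, at 113 ± 7.21 and 137 ± 26.4 per kb, below every *Smad7* value of the same genotype. *Rreb1* moved within this order, from between *Smad6* and *Smad7* (189 ± 15.1 per kb) in the wild type to between *Smad5* and *Smad2* (358 ± 51.3 per kb) in the mutants.

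**Figure D2:**
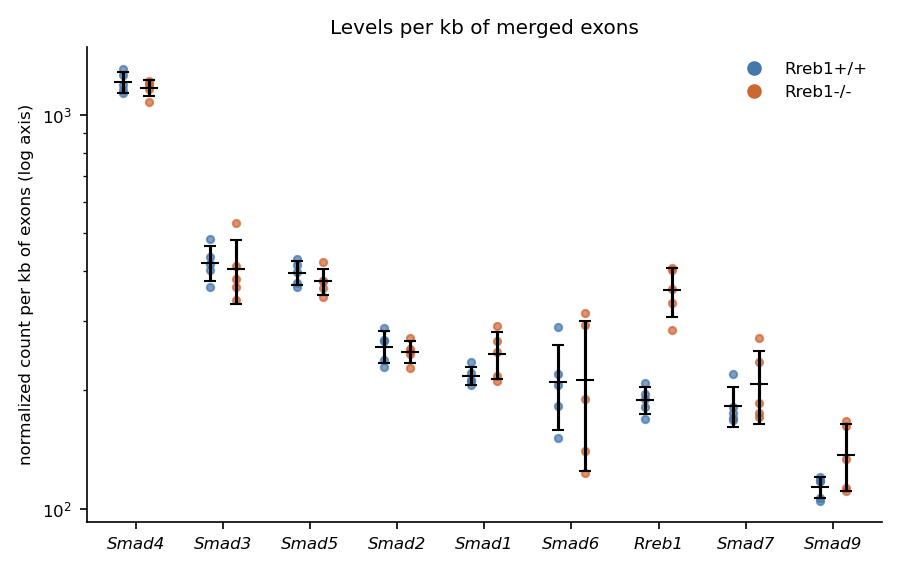
Normalized counts per kb of merged exons (log axis) of the 9 genes, ordered by the wild-type mean, with 1 point per embryo and mean ± SD for each genotype. *Smad4* lies above all other members in both genotypes, and only *Rreb1* changes its place between genotypes.

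The BMP-regulated SMADs did not pass the test in any direction. *Smad1*, on chromosome 8 from 79338395 to 79399518, was at 1291, 1387, 1479, 1322 and 1327 in *Rreb1*+/+ replicates 2 to 6 and at 1827, 1671, 1567, 1322 and 1360.2 in *Rreb1*-/- replicates 2 to 6. Mutant replicates 2, 3 and 4 lay above every wild-type embryo and mutant replicates 5 and 6 did not. Over all embryos the log2 fold change was 0.18 (95% interval −0.03 to 0.38, limma, adjusted p = 0.346), 0.28 in replicates 2 to 4 (0.05 to 0.52, limma, adjusted p = 0.203) and 0.02 in replicates 5 and 6 (−0.22 to 0.26). The difference between these sets was not tested. With the Y-linked covariate the log2 fold change was 0.43 (0.10 to 0.75, limma, adjusted p = 0.180).

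*Smad5*, on chromosome 13 from 56703010 to 56742377, was at 2771, 3085, 2714, 3193 and 2962 in *Rreb1*+/+ and at 2815, 2690.2, 3133, 2800.0 and 2562 in *Rreb1*-/- replicates 2 to 6. The embryos of both genotypes were interleaved, and the log2 fold change was −0.07 (95% interval −0.23 to 0.08, limma, adjusted p = 0.626). The gene shares 100 exon bases with a small RNA gene, *Gm27301*, that is not in the table.

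*Smad9*, on chromosome 3 from 54755582 to 54801257, was at 632, 647, 632, 572 and 562 in *Rreb1*+/+ and at 871, 718, 595, 606 and 894 in *Rreb1*-/- replicates 2 to 6. Mutant replicates 2 and 6 were the highest of all embryos and mutant replicates 4 and 5 lay among the wild types. On the log2 scale the mutants differed by 0.25 (95% interval −0.02 to 0.53, limma, adjusted p = 0.316), and by 0.53 with the Y-linked covariate (0.06 to 0.996, limma, adjusted p = 0.215). Mutant replicates 2 and 6 also held the highest sums of 6 parietal endoderm markers, 73642 and 80184, against 39911 to 50711 in the other 8 embryos. The sums of 5 maternal decidua markers were highest in the same embryos, 2098 and 1716 against 506 to 1088. The part of these tissues in the *Smad9* values was not tested. *Maf*, a transcription factor gene, had the pattern most like that of *Smad9* (root mean square difference 0.07).

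The Nodal-regulated SMADs did not pass the test either. *Smad2*, on chromosome 18 from 76241580 to 76310963, was at 2523, 2100.2, 2008, 2361 and 2335 in *Rreb1*+/+ and at 2384, 1998, 2233, 2209 and 2174 in *Rreb1*-/- replicates 2 to 6. Between genotypes *Smad2* differed by −0.04 on the log2 scale (95% interval −0.20 to 0.12, limma, adjusted p = 0.828), which in folds is 0.87 to 1.09. *Smad3*, on chromosome 9 from 63646767 to 63757994, was at 2233, 2417, 2026, 2677 and 2322 in *Rreb1*+/+ and at 2022, 2284, 1882, 2948 and 2128 in *Rreb1*-/- replicates 2 to 6. Replicate 5 was the highest and replicate 4 the lowest in both genotypes. Its log2 fold change was −0.06 (95% interval −0.32 to 0.19, limma, adjusted p = 0.824).

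*Smad4*, the common partner, on chromosome 18 from 73639009 to 73703780, was among the least variable of the SMAD genes. It was at 4412, 4858, 4683, 4297 and 4205 in *Rreb1*+/+ and at 4435, 4435, 4513, 4302 and 4009 in *Rreb1*-/- replicates 2 to 6. The coefficient of variation was 6.07% in the wild type, where only *Smad1* (5.46%) was lower, and 4.60% in the mutants, the lowest of the 8 SMAD genes. The log2 fold change was −0.05 (95% interval −0.17 to 0.08, limma, adjusted p = 0.702), so that folds of 0.89 to 1.05 remain within the interval.

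Of the inhibitory SMADs, *Smad6* varied most among embryos. *Smad6*, on chromosome 9 from 63953076 to 64022059, was at 585, 704, 925, 485 and 661 in *Rreb1*+/+ and at 450.3, 937, 395, 609.6 and 1004.5 in *Rreb1*-/- replicates 2 to 6. Its coefficient of variation was 24.4% in the wild type and 41.0% in the mutants, against medians of 8.53% and 10.7% over the 5917 tested genes in the members' range of mean counts. Its log2 fold change was −0.05 (SE 0.27 in limma, adjusted p = 0.944), and its 95% interval, 0.64-fold to 1.45-fold, is the widest of the 9 genes. *Smad7*, on chromosome 18 from 75367529 to 75395935, was at 992, 759, 791, 767 and 821 in *Rreb1*+/+ and at 1064, 1228, 774, 792 and 838 in *Rreb1*-/- replicates 2 to 6. Wild-type replicate 2 and mutant replicates 2 and 3 were the high embryos. On the log2 scale *Smad7* differed by 0.17 (95% interval −0.13 to 0.47, limma, adjusted p = 0.566), and by 0.40 with the Y-linked covariate (−0.13 to 0.94, limma, adjusted p = 0.366).

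**Figure D3:**
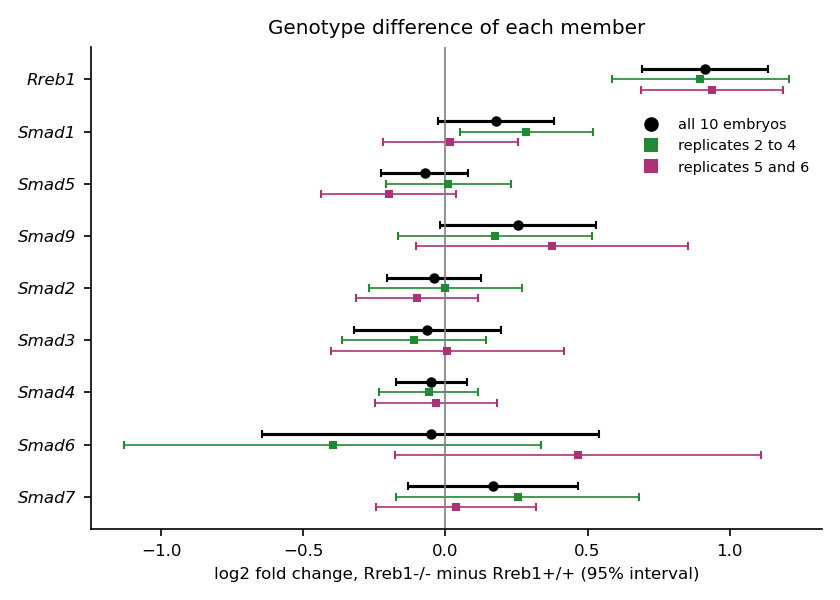
Log2 fold change of each of the 9 genes, *Rreb1*-/- minus *Rreb1*+/+, with its 95% interval from limma for all 10 embryos, for replicates 2 to 4 and for replicates 5 and 6. The *Rreb1* intervals lie above 0 in all 3 fits, whereas over all 10 embryos each SMAD interval includes 0.

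Summed over genes per kb, the BMP-regulated SMADs (*Smad1*, *Smad5* and *Smad9*) reached 697 to 758 in *Rreb1*+/+ and 701 to 833 in *Rreb1*-/- embryos. The Nodal-regulated pair (*Smad2* and *Smad3*) reached 594 to 752 and 594 to 783. Their ratio was 0.99 to 1.21 in *Rreb1*+/+ and 0.90 to 1.32 in *Rreb1*-/- embryos, so the balance of RNA between both branches overlapped between genotypes. In the exact two-sided permutation test the 8 SMAD genes gave unadjusted p of 0.0952 (*Smad1*) to 0.960 (*Smad6*). *Smad4* alone made up 38.8% to 41.8% of the per-kb sum of the 8 SMAD genes in the wild type and 36.7% to 42.1% in the mutants.

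*Smad6* followed *Id1* and *Id3* from embryo to embryo. ID proteins inhibit basic helix-loop-helix transcription factors, and *Id1*, *Id2* and *Id3* are classical targets of BMP signalling. *Id3* was at 2531, 3018, 4174, 2304 and 3481 in *Rreb1*+/+ and at 1674, 3475, 2138, 3077 and 3858 in *Rreb1*-/- replicates 2 to 6, and *Id1* was at 2014, 1881, 2671, 1775 and 2473 and at 1657, 2091, 1354, 1900 and 3112. The embryos high in *Smad6* (wild-type replicate 4, mutant replicates 3 and 6) were the highest of their genotype in *Id3*, and those low in it (wild-type replicate 5, mutant replicates 2 and 4) the lowest. Over the 10 embryos (two-sided tests) Pearson's r on log2 values was 0.90 for *Id3* (permutation p = 0.000480, adjusted 0.0130) and 0.87 for *Id1* (permutation p = 0.00117, adjusted 0.0158). Spearman's rho was 0.88 (permutation p = 0.00153, adjusted 0.0285) and 0.87 (permutation p = 0.00211, adjusted 0.0285).

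Without the 2 embryos farthest from the median of *Smad6*, r was 0.89 for *Id3* and 0.74 for *Id1*. After removal of the genotype means it was 0.91 and 0.88, and within replicates 2 to 4 of both genotypes (6 embryos) 0.92 and 0.89, while replicates 5 and 6 hold too few embryos for a value. These were the only 2 of 27 relations between the 9 genes and *Id1*, *Id2* and *Id3* to pass at an adjusted p under 0.05, and they share *Smad6* and the libraries. *Smad7* was related to *Id2* with r = 0.73 (permutation p = 0.0155, adjusted 0.105) and *Smad9* with r = 0.69 (permutation p = 0.0242, adjusted 0.131). *Smad5* went the other way, with r = −0.76 for *Id2* (permutation p = 0.0146, adjusted 0.105) and −0.68 for *Id1* (permutation p = 0.0294, adjusted 0.132). So did *Smad2* with *Id3* (r = −0.64, permutation p = 0.0483, adjusted 0.186). For *Smad6* and *Id2* r was 0.19 (permutation p = 0.593, adjusted 0.942). The relations were examined after the values had been seen, and their cause was not tested. Relations of *Smad6* to other genes were not tested, so how many genes follow it as closely was not examined. *Lmna*, the gene most like *Smad6* out of 15602 compared, was at 609, 655, 898, 565 and 820.5 in *Rreb1*+/+ replicates 2 to 6. In *Rreb1*-/- replicates 2 to 6 *Lmna* was at 451, 856, 422, 569 and 925.

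**Figure D4:**
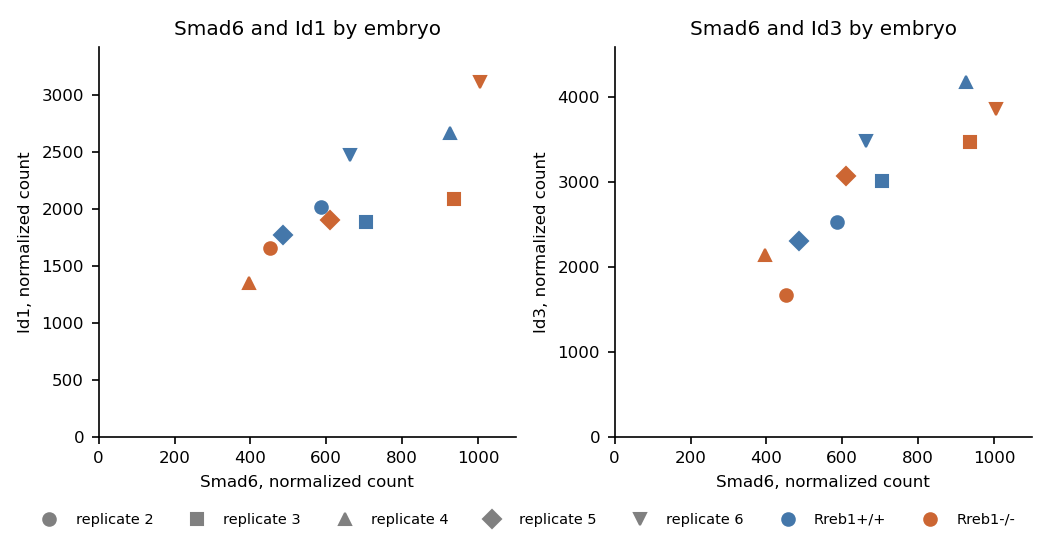
Normalized counts of *Id1* (left) and *Id3* (right) against *Smad6*, with 1 point per embryo, coloured by genotype and shaped by replicate number. Embryos of both genotypes lie along the same rise, from *Rreb1*-/- replicate 4 (395 for *Smad6*) to *Rreb1*-/- replicate 6 (1004.5).

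The promoter windows of *Smad6* and *Id3* are shown because these genes moved together, with capitals at SMAD motifs. The *Smad6* window covers chr9:64022050-64022309 on the minus strand, the *Id3* window chr4:136143572-136143831 on the plus strand (RefSeq, GRCm38.p6), and both run 5′ to 3′ from 250 bases before the start to 10 bases after it.
Smad6: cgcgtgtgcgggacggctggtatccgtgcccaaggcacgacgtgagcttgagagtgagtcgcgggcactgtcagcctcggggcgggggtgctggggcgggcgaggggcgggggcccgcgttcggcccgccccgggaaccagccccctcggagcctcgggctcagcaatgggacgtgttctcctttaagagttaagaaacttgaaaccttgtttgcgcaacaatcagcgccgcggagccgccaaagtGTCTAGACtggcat
Id3: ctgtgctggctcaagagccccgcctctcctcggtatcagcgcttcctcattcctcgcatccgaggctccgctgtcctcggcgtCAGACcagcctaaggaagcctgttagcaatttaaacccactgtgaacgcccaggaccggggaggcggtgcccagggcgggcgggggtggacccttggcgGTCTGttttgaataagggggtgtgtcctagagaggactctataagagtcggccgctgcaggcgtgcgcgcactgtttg
*Smad6* holds the SMAD palindrome GTCTAGAC, its first base at position −4 where +1 is the first transcribed base, and 0.177% of all 32851 windows hold it. *Id3* holds CAGAC at position −167 and its complement GTCTG at −68, letters that occur in 44% of all windows, and neither window holds GGCGCC. *Id2*, which did not follow *Smad6*, holds GGCGCC at −231. For *Id1*, which followed *Smad6* too, no window was available. These matches do not show binding, and a shared cause was not tested. The windows of *Smad1* and *Smad3* held none of the 4 motifs.

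The genes around the SMADs were examined in 13 lists fixed by role, with 119 genes in all, of which 112 were tested. Of these, 3 were called higher in the mutants, *Cfc1*, *Twsg1* and *Has2*, which is 2.68% and near the 3.11% of all genes. None was called lower in limma, edgeR or DESeq2. At a p under 0.05 before adjustment 11 were higher (9.82%, beside 9.74% of all genes tested) and 3 lower (2.68%, beside 8.21%). The median log2 fold change was −0.01 for the 112 genes and −0.02 for all genes tested. With the Y-linked covariate the log2 fold changes of *Cfc1*, *Twsg1* and *Has2* were 0.81, 0.39 and 0.64, larger than without it, and the calls were lost (limma, adjusted p = 0.114, 0.116 and 0.150). In edgeR *Bmper* was called higher as a 4th gene, and in DESeq2 *Bmper* and *Lhx1*.

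Among ligands, none of the 8 BMP genes and none of the 5 tested Nodal, activin and TGF-β genes was called (1 higher and 0 lower before adjustment in each list). *Bmp4* was at 1283 ± 43.5 in *Rreb1*+/+ and 1553 ± 296 in *Rreb1*-/- embryos (log2 fold change 0.26, limma, adjusted p = 0.264), and *Bmp6* at 316 ± 30.5 and 372 ± 71.8 (0.22, limma, adjusted p = 0.442). *Nodal* was at 61.4, 70.3, 106.9, 50.9 and 33.0 in *Rreb1*+/+ and at 139.9, 185.0, 133.8, 59.5 and 66.8 in *Rreb1*-/- replicates 2 to 6. Mutant replicates 2 to 4 lay above every wild-type embryo and mutant replicates 5 and 6 did not, so the genotypes overlapped (log2 fold change 0.82, limma, adjusted p = 0.277). *Gdf3*, *Inhba* and *Inhbb* were below the filter and *Gdf1* was not in the table.

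Among receptors, the type I list had no called gene of 6 tested (1 higher and 0 lower before adjustment), and the type II and co-receptor list had 1 of 10. That gene was *Cfc1*, which encodes Cryptic, a co-receptor for Nodal and GDF1. It was at 401, 418, 364, 316 and 373 in *Rreb1*+/+ and at 633, 679, 539, 472 and 547 in *Rreb1*-/- replicates 2 to 6. All mutants lay above all wild types, with a log2 fold change of 0.61 (SE 0.12 in limma, adjusted p = 0.0128). *Tdgf1*, the related co-receptor Cripto, ranged from 8.5 to 376 in *Rreb1*+/+ and from 10.4 to 3333 in *Rreb1*-/- embryos (limma, adjusted p = 0.604).

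Among 15 extracellular antagonists, 1 was called, *Twsg1*, whose product binds BMPs together with Chordin. It was at 2827, 2846, 2713, 2952 and 2794 in *Rreb1*+/+ and at 3680.1, 3600, 3566, 3135 and 3316 in *Rreb1*-/- replicates 2 to 6. The groups did not overlap, and the log2 fold change was 0.29 (SE 0.06 in limma, adjusted p = 0.0155). *Bmper*, another BMP-binding protein, which was picked out here after its values were seen, was at 228 to 353 and 283 to 871 (log2 fold change 1.04, limma, adjusted p = 0.0665, and 0.0109 with a replicate block). The study, with DESeq and its own cutoffs, reported *Bmper* among the upregulated genes. *Lefty1* and *Lefty2*, antagonists of Nodal, did not pass, with *Lefty1* at 0 to 22.9 in *Rreb1*+/+ and 0.9 to 47.8 in *Rreb1*-/- embryos. *Lefty2* was at 236, 388, 928, 4.8 and 3.8 in *Rreb1*+/+ and at 1227, 2178, 1619, 1.9 and 13.6 in *Rreb1*-/- replicates 2 to 6, so that it followed the division between replicates 2 to 4 and replicates 5 and 6 in both genotypes.

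Inside the cell, no gene was called among 11 ubiquitin ligases and deubiquitinases of SMADs (0 higher and 1 lower before adjustment), 8 anchors, phosphatases and importers (0 and 0), 11 transcription partners and coactivators (0 and 0), 8 corepressors (0 and 0) and 6 corepressor partners of RREB1 (1 and 1). *Foxh1*, the partner through which SMAD2 reaches many Nodal targets, was at 2473 ± 556 and 2078 ± 569 (log2 difference −0.26, limma, adjusted p = 0.511). *Ctbp1* (4741 ± 591 and 4471 ± 870) and *Ctbp2* (3590.4 ± 282 and 3415 ± 720), whose products are corepressors that bind RREB1, had adjusted p of 0.753 and 0.741 in limma.

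Among targets, none of 14 genes of the SMAD1 and SMAD5 list was called (2 higher and 0 lower before adjustment), with a median log2 fold change of −0.05. *Id1*, *Id2* and *Id3* differed by −0.14, 0.25 and −0.16 (limma, adjusted p = 0.769, 0.266 and 0.772). None of 14 tested genes of the SMAD2 and SMAD3 list was called either (2 higher and 0 lower before adjustment), and the median was 0.50. Of 5 genes that RREB1 and SMADs induce together in carcinoma cells treated with TGF-β, *Has2*, the hyaluronan synthase gene, was called. It was at 1131, 1040.1, 1025, 1369 and 1168 in *Rreb1*+/+ and at 1766, 1727, 1580.1, 1460 and 1273 in *Rreb1*-/- replicates 2 to 6. The groups overlapped at mutant replicate 6, and the log2 fold change was 0.44 (SE 0.11 in limma, adjusted p = 0.0425). The difference was 0.67 in replicates 2 to 4 (limma, adjusted p = 0.0131) and 0.11 in replicates 5 and 6 (limma, adjusted p = 0.782), which was not tested as a difference between the sets. Over all embryos in limma the adjusted p was 0.0566 with a replicate block, 0.0509 with quantile normalization, 0.0511 without the filter on low values, and 0.0592 to 0.112 without any 1 of *Rreb1*+/+ replicates 2, 3, 4 and 6 or *Rreb1*-/- replicates 2, 3, 4 and 5. *Snai1*, which encodes the transcription factor SNAIL, was at 492 ± 105 and 601 ± 197 (0.26, limma, adjusted p = 0.582), and *Pdgfb* and *Wisp1* had adjusted p of 0.593 and 0.732 in limma. *Il11* was at 0 to 4.8 in all embryos and was not tested.

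**Figure D5:**
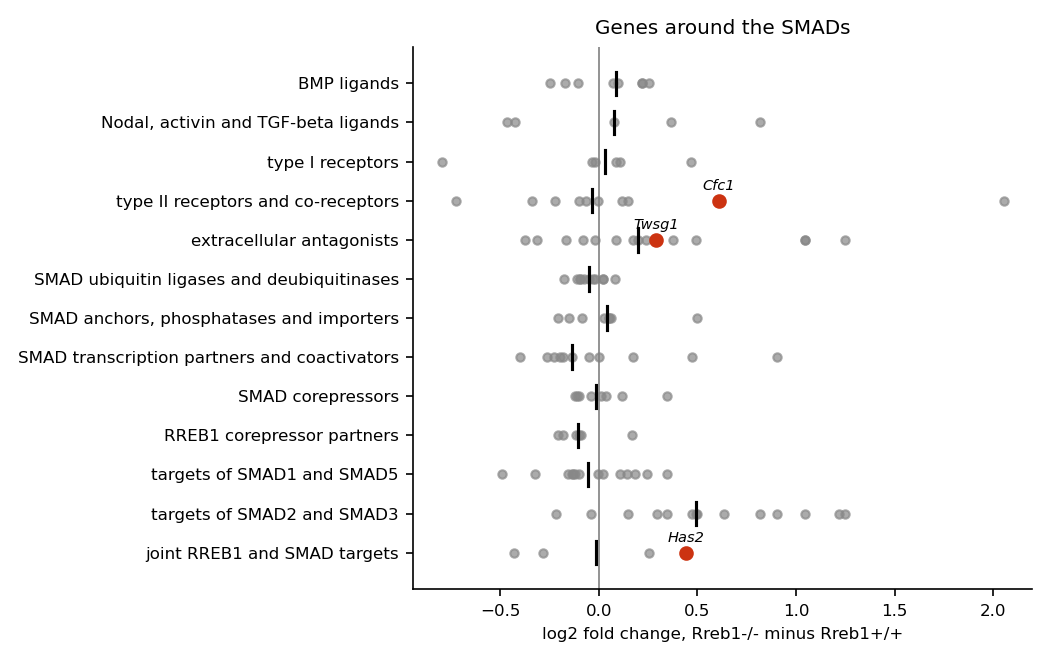
Log2 fold change (*Rreb1*-/- minus *Rreb1*+/+) of each tested gene of the 13 lists, 1 point per gene, with the list's median as a bar and the 3 called genes in red with their names. The lists centre near 0 except the targets of SMAD2 and SMAD3, whose median is 0.50 although no gene of that list was called.

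Within replicates 2 to 4, 9 of the 112 genes were called higher, beside 2.17% of all genes, and 1 lower, beside 1.44% of all genes. These genes fall outside the naming rule and were picked out after their values were seen. The higher genes besides *Cfc1*, *Twsg1* and *Has2* were *Tdgf1*, *Eomes*, *Lhx1*, *Cer1*, *Skil* and *Bmper*, and the lower gene was *Acvrl1*, a type I receptor of endothelial cells. *Tdgf1* was at 130, 271 and 376 in *Rreb1*+/+ and at 3333, 1955 and 2316 in *Rreb1*-/- replicates 2 to 4, 3.38 higher on the log2 scale (limma, adjusted p = 0.00561). *Eomes*, a T-box gene of the early streak, was at 1560.0, 1623 and 1928 and at 5858, 4821 and 4549 (1.57, limma, adjusted p = 0.00238). Both were at low and similar levels in replicates 5 and 6 of both genotypes, *Tdgf1* at 8.5 to 14.4 and *Eomes* at 642 to 758.

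Of the 14 tested targets of SMAD2 and SMAD3, *Lhx1*, *Eomes*, *Cer1* and *Skil* were called higher within replicates 2 to 4 (log2 fold changes 0.58 to 1.92). Over all genes 2.17% were called higher there. The median of the list was 0.88, against 0.09 in replicates 5 and 6, where none was called (0 at an unadjusted p under 0.05). None of the 5 primitive streak and mesoderm markers was called in replicates 2 to 4 (limma, adjusted p = 0.0658 to 0.336). Their log2 differences went both ways, 1.89 for *Lefty2*, 1.34 for *Mesp1*, 0.85 for *Mixl1*, −0.40 for *T* (Brachyury) and −1.24 for *Tbx6*. Of these markers, *Lefty2* and *Mixl1* are also in the list of SMAD2 and SMAD3 targets. In the same 6 embryos the SMAD2 and SMAD3 genes themselves overlapped between genotypes, *Smad3* differing by −0.11 on the log2 scale (limma, adjusted p = 0.635) and *Smad2* nearer to 0. The difference between the replicate sets was not tested. According to the study, mutants were small and developmentally delayed beside their littermates from E7.5 onwards. Differences of stage between genotypes cannot be told apart from the effect of the mutation. Sex was largely confounded with genotype too, as only *Rreb1*-/- replicate 2 had a Y-linked sum (2.1) as low as the wild types. In that single embryo *Rreb1* (4657), *Cfc1* (633), *Twsg1* (3680) and *Has2* (1766) lay above every wild-type embryo. The part of sex in these differences was not tested.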

How the data were processed

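RNA-sequencing of polyA RNA from 10 single E7.5 embryos was analysed from the 1 deposited table. As the authors describe, reads of a stranded library were mapped, counted per gene with HTSeq and scaled with DESeq, so that the deposited signal is a normalized count, namely reads scaled by the size factor of the library (genome build not given in the sources used here). Whole reads were recovered for 100% of values (tolerance 0.1 read) and gave 31.5 to 35.8 M reads in genes per embryo. Of 20974 genes, the 15603 whose mean reached 15 in either genotype entered limma 3.58.1 (R 4.3.3) as log2(normalized count + 1), with the variance following the mean and p-values adjusted over all genes tested by the Benjamini-Hochberg method. Fold changes are on that log2 scale and understate the change of low genes. For the members all 252 arrangements of the embryos were enumerated as well (exact permutation test, two-sided), and relations between genes were tested with 100000 permutations. The embryos are separate animals.

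Members and lists were chosen with earlier results of these data known. Named genes were the members, up to 4 called genes of each list (lowest adjusted p first), 16 genes taken without regard to their values, tested genes within 0.5 Mb of *Rreb1* and the genes most like each member. Same-numbered embryos of both genotypes deviated together (correlations 0.253 to 0.459 over 5 pairs), but so did embryos of unlike number within replicates 5 and 6 (0.400 and 0.492) and some within replicates 2 to 4 (−0.003 to 0.383), whereas all correlations between these sets were negative (−0.458 to −0.134), and the number also served as a replicate block in an alternative fit. The pairing comes from the titles' replicate numbers. Alternatives tried were fits of the recovered reads with DESeq2 1.42.0 and edgeR 4.0.16, scaling by TMM or by quantiles, changed filters and pseudocounts, an adjusted p under 0.01, the replicate block, a Y-linked covariate, replicates 2 to 4 or 5 and 6 alone, and leaving out each embryo. Exon lengths and positions came from GENCODE M21 (GRCm38), and promoter windows from RefSeq (GRCm38.p6). The fits were tested on simulated data.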

Additional observations from a re-analysis of the deposited data

Results flagged for a closer look

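In 90 groups of 5 embryos (the named genes in each genotype), the highest or lowest embryo was examined for a gap to its nearest neighbour of more than 0.71 of the group's range, which chance gives in about 1 of 20 groups, and 2 groups met this. *Smad7* in *Rreb1*+/+ replicate 2 stood at 992.0, above the 759 to 821 of the other wild-type embryos. *Cage1* in *Rreb1*-/- replicate 5 stood at 16.7, above the 6.2 to 8.5 of the other mutants. The causes were not tested.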

How the results depend on the processing

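*Rreb1* was called higher in 21 of 22 alternatives, the exception being the Y-linked covariate (log2 fold change 0.85, adjusted p = 0.0814), which left 0 of the 9 members called and in which sex is nearly confounded with genotype, and no SMAD gene was called in any alternative. The Y-linked covariate raised the log2 fold changes of *Smad1* from 0.18 to 0.43, *Smad9* from 0.25 to 0.53 and *Smad7* from 0.17 to 0.40, with unadjusted 95% intervals above 0 for *Smad1* and *Smad9*. Without single embryos the log2 fold change of *Rreb1* was 0.86 to 0.99, and the number of members called higher stayed at 1 and lower at 0. SMAD genes near 0 changed sign without being called, *Smad5* at 0.011 in replicates 2 to 4, *Smad2* at 0.089 with the Y-linked covariate and at −0.082 to 0.0002 without single embryos, *Smad3* at 0.0064 in replicates 5 and 6, and *Smad6* at 0.018 in edgeR, 0.016 in DESeq2, 0.47 in replicates 5 and 6 and −0.22 to 0.12 without single embryos. Pathway genes called higher numbered 3, against 5 in DESeq2, 9 in replicates 2 to 4, 0 in replicates 5 and 6, 0 with the Y-linked covariate, 0 at an adjusted p under 0.01 and 2 to 4 without single embryos, and 1 was lower in replicates 2 to 4. In replicates 5 and 6 the log2 fold changes of *Id1* (0.21), *Id3* (0.28), *Ctbp1* (0.051) and *Wisp1* (0.53) were above 0, and that of *Id3* was −0.28 to 0.016 without single embryos. With the replicate block 4 pathway genes were called higher (*Cfc1*, *Twsg1*, *Bmper* and *Fstl1*), 1 member was called (*Rreb1*, 0.91, adjusted p = 0.000622), and no call other than those of *Has2*, *Bmper* and *Fstl1* changed. The causes were not tested.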
